A study of Homo sapiens with 4 samples.

Results

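AP-1 is a family of basic leucine zipper (bZIP) transcription factors that bind DNA as dimers, in the main of a FOS protein with a JUN protein. The 9 genes described here are the FOS genes FOS, FOSB, FOSL1 and FOSL2, the JUN genes JUN, JUNB and JUND, and the related factors ATF3 and BATF3. They were taken by gene symbol from the 48162 genes listed in the deposited table. Of these 9 genes, 7 had a mean level of at least 1 FPKM (fragments scaled to gene length in kilobases and to the depth of the library) and were tested among 12080 genes, whereas FOS and FOSB lay below that filter. RNA came from MDA-MB-231 cells, an established human breast cancer line of mesenchymal type, after 24 h with vehicle control (2 libraries) or with 10 µM MGH-CP1 (2 libraries), an inhibitor of TEAD palmitoylation. All libraries are of 1 cell line, and the labels do not say whether the replicates came from separate cultures, so that p-values measure the spread between these libraries only. The study's methods write the dose in mM, and the sample labels in µM.

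TEADs are the DNA-binding partners of YAP and TAZ, and AP-1 sites lie beside TEAD sites in many enhancers of cancer cells. FOS, FOSB, JUNB and ATF3 are known as immediate-early or stress-induced genes whose transcripts are short-lived. FOSL1, which encodes FRA1, is known for steady high expression in mesenchymal breast cancer cells with active RAS and ERK signalling. FOS proteins do not form dimers with each other and need a JUN partner, while JUN proteins can also pair among themselves.

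The 4 libraries held 17577930 to 25508824 fragments on genes, with the MGH-CP1 libraries the shallower ones. At this depth FOSL1 had 4070 to 9475 fragments per library and JUNB 522 to 651, but FOS had 21 to 72 and FOSB 10 to 18. The 6 markers of the mesenchymal line (VIM, CD44, AXL, FN1, SNAI2 and CAV1) were all above 1 FPKM, with a sum of 1251 to 1252 FPKM in the vehicle control and 1077 to 1106 FPKM in the MGH-CP1 libraries. Within that sum FN1 rose by 0.82 on the log2 scale, while AXL (-0.76), CAV1 (-0.49) and SNAI2 (-0.45) fell, and VIM (-0.07) and CD44 (0.12) did not pass the test. Of the 6 epithelial and receptor genes, ESR1, PGR, CDH1, GRHL2 and ELF5 were below 1 FPKM in every library, whereas ERBB2 was at 24.7 to 28.4 FPKM. Of 8 markers of blood, endothelial, fibroblast and liver cells, CD3E and CDH5 were among those at 0, and the sum of the list was 4.42 to 5.17 FPKM in the vehicle control and 7.58 to 9.26 FPKM in the MGH-CP1 libraries, a shift whose part in the results was not tested. In this list the monocyte gene CD14 rose from 2.44 and 1.79 to 4.07 and 3.29 FPKM (limma, log2 fold change 0.59, adjusted p = 0.00715), and the liver gene ALB had 0 fragments with vehicle in both libraries, 3 in MGH-CP1 replicate 1 and 102 in MGH-CP1 replicate 2. The fibroblast genes COL1A1 and PDGFRB were, like CD14, above 1 FPKM in every library. COL1A1 had 1.31 and 1.39 FPKM with vehicle and 1.83 and 1.70 FPKM after MGH-CP1. PDGFRB had 1.40 and 1.24 FPKM with vehicle and 1.58 and 1.67 FPKM after MGH-CP1. Neither of these passed the test (limma, adjusted p = 0.115 and 0.226). The TEAD–YAP target genes CYR61, CTGF and ANKRD1, the check of the treatment, summed to 581 to 597 FPKM in the vehicle control and 344 to 370.1 FPKM in the MGH-CP1 libraries.

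The sequence just before the start of the members was searched for 3 short motifs, on both strands: the AP-1 element TGANTCA, the CRE-like element TGACNTCA, which JUN–ATF dimers are known to bind, and the TEAD element CATTCC. RefSeq starts on GRCh38.p14 were at hand for 7 of the 9 genes, and the 250 bases upstream of each start were read. FOSL1 and BATF3 had no listed start and were not searched, so these 7 genes are not the 7 that were tested. The CRE-like element was found for 3 of these 7 genes, JUN, JUND and ATF3, and in 6.87% of the 35116 promoters of the same length. TGANTCA was found for 0 of the 7 genes and in 6.57% of all promoters, and CATTCC for 0 of the 7 and in 11.9% of all. The 3 upstream regions with the element are shown, with that element in capitals, together with those of JUNB and FOSL2, which rose after MGH-CP1 and hold none of the 3 motifs. In JUN the element lies 67 to 60 bases before the start, in JUND 200 to 193 and in ATF3, for the first of its 2 listed starts, 123 to 116. The regions are chr1:58784048-58784297 (minus strand) for JUN, chr19:18281623-18281872 (minus strand) for JUND, chr1:212565157-212565406 (plus strand) for ATF3, chr19:12791236-12791485 (plus strand) for JUNB and chr2:28392608-28392857 (plus strand) for FOSL2. A match is a description of these letters and no evidence of binding.
JUN: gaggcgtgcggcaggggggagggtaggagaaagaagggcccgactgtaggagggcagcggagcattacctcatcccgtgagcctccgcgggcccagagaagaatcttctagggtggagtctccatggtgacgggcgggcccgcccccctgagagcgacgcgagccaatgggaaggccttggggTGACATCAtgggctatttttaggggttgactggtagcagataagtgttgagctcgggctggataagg
JUND: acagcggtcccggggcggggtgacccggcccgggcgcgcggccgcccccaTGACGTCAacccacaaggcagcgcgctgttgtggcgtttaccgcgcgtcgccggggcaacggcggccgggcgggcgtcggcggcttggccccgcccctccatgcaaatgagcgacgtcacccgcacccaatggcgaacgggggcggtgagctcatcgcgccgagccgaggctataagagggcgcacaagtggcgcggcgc
ATF3: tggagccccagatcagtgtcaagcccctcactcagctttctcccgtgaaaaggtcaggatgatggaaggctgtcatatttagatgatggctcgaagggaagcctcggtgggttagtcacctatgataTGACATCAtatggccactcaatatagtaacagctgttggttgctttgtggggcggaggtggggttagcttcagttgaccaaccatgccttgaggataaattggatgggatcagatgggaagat
JUNB: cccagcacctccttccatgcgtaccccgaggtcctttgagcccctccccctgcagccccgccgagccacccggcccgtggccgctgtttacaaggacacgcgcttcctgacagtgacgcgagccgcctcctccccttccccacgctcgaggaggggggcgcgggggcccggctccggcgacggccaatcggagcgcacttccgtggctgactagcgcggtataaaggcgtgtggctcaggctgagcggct
FOSL2: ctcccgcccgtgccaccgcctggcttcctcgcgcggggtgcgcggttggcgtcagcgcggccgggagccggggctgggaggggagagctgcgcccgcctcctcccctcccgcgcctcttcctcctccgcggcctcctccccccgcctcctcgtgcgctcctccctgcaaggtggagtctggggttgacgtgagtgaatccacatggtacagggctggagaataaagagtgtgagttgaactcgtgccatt

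**Figure D1:**
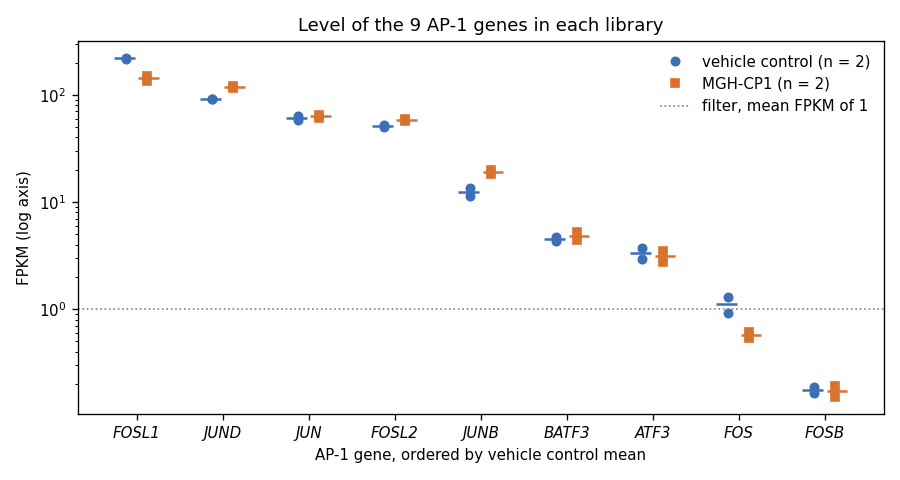
FPKM of each AP-1 gene on a log axis, with circles for the 2 vehicle control libraries, squares for the 2 MGH-CP1 libraries and short lines for the means. FOSL1 stood highest in every library, the 2 conditions were apart for FOSL1, FOSL2, JUNB, JUND and FOS, and they overlapped for JUN, ATF3, BATF3 and FOSB.

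Of the 7 AP-1 genes tested, 3 rose after MGH-CP1 (JUNB, JUND and FOSL2), 1 fell (FOSL1) and 3 did not pass the test (JUN, ATF3 and BATF3), with an adjusted p threshold of 0.05 from limma. Among all 12080 genes tested, 50.8% were called, 27.1% as higher and 23.8% as lower, so that the 57.1% called among the members is close to the share among all genes. Of the 7, 4 had conditions that did not overlap, against 77.2% of all genes tested. The median log2 fold change of the 7 genes was 0.08, and that of all genes tested was 0.01. The FOS gene with the highest level was the one that fell, and both JUN genes that passed the test rose. With 2 libraries per condition the smallest exact two-sided permutation p of 1 gene is 0.333, and the calls therefore depend on variance that limma pools over genes. Without that pooling, 0 of the 7 genes passed the adjusted threshold, with an adjusted p of 0.0757 for FOSL1, 0.0743 for JUND, 0.112 for JUNB and 0.12 for FOSL2. Among all 12080 genes tested, that fit called only 9 higher and 4 lower, so the loss of calls is not particular to the members. In bulk RNA, a change in the number of cells that express a gene and a change in RNA per cell cannot be told apart.

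FOSL1 (ENSG00000175592), the partner of JUN proteins with the highest level among the FOS genes, is at hg19 chromosome 11, 65659520 to 65668044, minus strand. Its FPKM was 217 and 223 with vehicle and 135 and 151 after MGH-CP1. Both MGH-CP1 libraries lay below both vehicle control libraries, and the gap was larger than the spread within either condition. The mean was 219.7 ± 4.0 FPKM (SD, n = 2) in the vehicle control and 143 ± 10.6 FPKM (SD, n = 2) after MGH-CP1, so that the level fell by 34.9%. The log2 fold change was -0.62 (limma, standard error or SE 0.06, adjusted p = 1.17e-04), and by the size of the fall FOSL1 ranked 434 of the genes tested. With each library left out in turn it stayed between -0.69 and -0.54, and it passed the test in each of these fits. FOSL1P1, a listed pseudogene of FOSL1, had 0 fragments in all 4 libraries.

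FOSL2 (ENSG00000075426), which encodes FRA2, is at hg19 chromosome 2, 28615315 to 28640179, plus strand. Its FPKM was 49.7 and 52.1 with vehicle and 56.8 and 59.0 after MGH-CP1, so the conditions did not overlap, but the step was small. The mean was 50.9 ± 1.65 FPKM (SD, n = 2) and 57.9 ± 1.5 FPKM (SD, n = 2), a rise of 13.7%. The log2 fold change was 0.18 (limma, SE 0.05, adjusted p = 0.0178). This call is the least firm of the 4, since the adjusted p from limma was 0.0725 without vehicle control replicate 1, 0.101 without MGH-CP1 replicate 2, 0.0621 with no filter on low values and 0.0587 without the variance trend.

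FOS and FOSB, the classic serum-induced members, were near the limit of detection at this depth. FOS (ENSG00000170345; hg19 chromosome 14, 75745477 to 75748933, plus strand) had 0.928 and 1.31 FPKM with vehicle and 0.541 and 0.606 FPKM after MGH-CP1. These values rest on 51 and 72 fragments with vehicle and on 21 and 23 fragments after MGH-CP1. Both MGH-CP1 libraries lay below both vehicle control libraries, and the change of the mean was -48.7%. FOS did not enter the main test; when genes of any level were included, its log2 fold change was -0.42 (limma, SE 0.12, adjusted p = 0.112). In a fit of limma voom to the recovered fragments, chosen after the data were seen so that genes with few fragments could enter, it was -0.93 (SE 0.34, adjusted p = 0.0216), where 49.2% of 14443 genes were called. These fits differ in scale, in filter and in variance model, and which of these moved the call on FOS was not tested. FOSB (ENSG00000125740; hg19 chromosome 19, 45971253 to 45978437, plus strand) had 0.167 and 0.187 FPKM with vehicle and 0.191 and 0.151 FPKM after MGH-CP1, and the conditions overlapped. In the voom fit its log2 fold change was -0.03 (SE 0.46, adjusted p = 0.96), an error that leaves room for a change of either sign. The whole of FOSB lies within the listed span of ERCC1 on the opposite strand, which held 968 to 1259 fragments, although the exons of these genes share 0 bases in GENCODE release 29, which is on GRCh38.

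Of the JUN genes, JUND (ENSG00000130522; hg19 chromosome 19, 18390563 to 18392432, minus strand), known as the member that is expressed without stimulation, had the highest level. Its FPKM was 90.9 and 91.4 with vehicle and 122 and 115 after MGH-CP1. The vehicle control libraries were nearly equal and both MGH-CP1 libraries lay above them. The mean rose by 29.9%, from 91.2 ± 0.310 to 118 ± 5.28 FPKM (SD, n = 2), with a log2 fold change of 0.37 (limma, SE 0.05, adjusted p = 5.55e-04). With each library left out in turn it stayed between 0.33 and 0.42 and passed the test each time.

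JUNB (ENSG00000171223; hg19 chromosome 19, 12902310 to 12904124, plus strand), often described as a weaker activator that can restrain JUN, had the largest rise of the 7 genes. Its FPKM was 11.3 and 13.4 with vehicle and 19.9 and 18.4 after MGH-CP1. No MGH-CP1 library came near the range of the vehicle control libraries. The mean rose by 55.2%, from 12.3 ± 1.48 to 19.2 ± 1.08 FPKM (SD, n = 2), and the log2 fold change was 0.60 (limma, SE 0.08, adjusted p = 7.48e-04). It ranged from 0.49 to 0.71 with each library left out in turn, and by the size of the rise JUNB ranked 910 of the genes tested. The whole of JUNB lies within the listed span of HOOK2, a gene on the opposite strand for a microtubule-binding protein, and in GENCODE release 29 the exons of HOOK2 cover 259 of the 1820 exonic bases of JUNB. HOOK2 had 4.56 and 4.29 FPKM with vehicle and 10.2 and 9.27 FPKM after MGH-CP1, which on the log2 scale is a rise of 0.98 (adjusted p = 6.12e-05 from limma). Whether the counting used the strand is not given in the sources used here, so reads from the shared bases cannot be told apart, and their part in the rise of JUNB was not tested.

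JUN (ENSG00000177606; hg19 chromosome 1, 59246465 to 59249785, minus strand), the founding member of the family, had 58.0 and 63.8 FPKM with vehicle and 61.1 and 64.6 FPKM after MGH-CP1. The libraries of the 2 conditions overlapped, and the spread within the vehicle control was wider than the difference of the means. The log2 fold change was 0.04 (95% interval -0.09 to 0.18, adjusted p = 0.558 from limma), so a change of the size seen for JUND lies outside the interval, and its sign turned with a library left out. The listed length of JUN, JUNB and JUND equals the span of the gene, as it does for 1.84% of the 10941 protein-coding genes tested, which is the mark of a gene without introns, and none of the other 6 members shares it.

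ATF3 (ENSG00000162772), a stress-induced factor that pairs with JUN proteins, and BATF3 (ENSG00000123685), a small member known from dendritic cells that lacks an activation domain, are neighbours on chromosome 1 with 65640 bases between them. ATF3 lies on the plus strand from 212738676 to 212794119 and BATF3 on the minus strand from 212859760 to 212873327 in hg19. ATF3 had 2.95 and 3.69 FPKM with vehicle and 3.49 and 2.77 FPKM after MGH-CP1. BATF3 had 4.35 and 4.76 FPKM with vehicle and 5.26 and 4.47 FPKM after MGH-CP1. For both genes the libraries of the conditions overlapped. The log2 fold change was -0.06 for ATF3 (95% interval -0.35 to 0.22, adjusted p = 0.689 from limma) and 0.08 for BATF3 (95% interval -0.15 to 0.30, adjusted p = 0.538 from limma). The sign of both values turned with a library left out, and that of BATF3 also with quantile normalization, where it was -0.02.

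**Figure D2:**
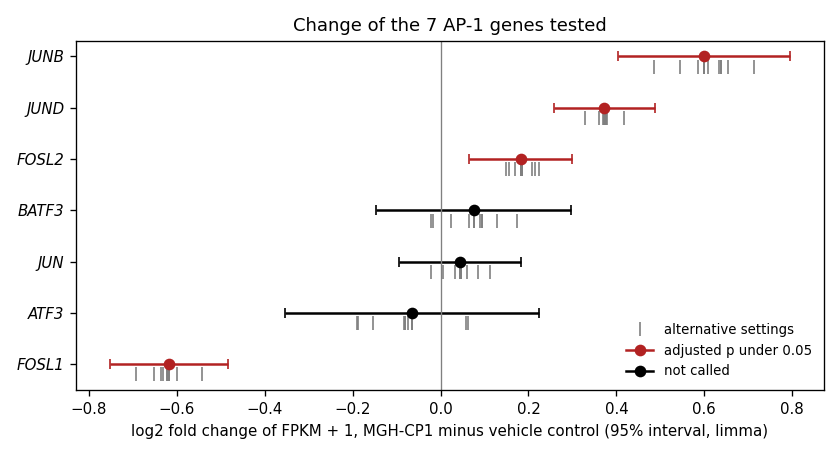
Log2 fold change of log2(FPKM + 1), MGH-CP1 minus vehicle control, for the 7 AP-1 genes tested, with the 95% interval from limma; the ticks under each point are the same value under the alternative settings. JUNB, JUND and FOSL2 lie right of 0 and FOSL1 left of it at every setting, while the ticks of JUN, ATF3 and BATF3 fall on both sides.

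In order of FPKM, which is per length, the members ranked FOSL1, JUND, JUN, FOSL2, JUNB, BATF3, ATF3, FOS and FOSB in the vehicle control, and this order was the same after MGH-CP1. Neighbours in the order did not overlap between their libraries within either condition. The distances changed, however. FOSL1 was 2.41 times as high as JUND in the vehicle control and 1.21 times as high after MGH-CP1, and JUN was 1.2 and 1.09 times as high as FOSL2.

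Because a ratio within a library does not depend on the scaling between libraries, the makeup of each family was also compared. FOSL1 made up 81.0% and 80.6% of the summed FPKM of the 4 FOS genes with vehicle and 70.2% and 71.6% after MGH-CP1. FOSL2 made up 18.6% and 18.9% with vehicle and 29.4% and 28.0% after MGH-CP1. FOS and FOSB held very little of this sum, so a fall of the FOSL1 share entails a rise of the FOSL2 share. The ratio of FOSL1 to FOSL2 was 4.32 ± 0.0610 (SD, n = 2) with vehicle and 2.47 ± 0.120 (SD, n = 2) after MGH-CP1. The JUN family moved less. JUND made up 56.7% and 54.2% of the summed JUN FPKM with vehicle and 60.1% and 58.0% after MGH-CP1, and the share of JUN itself was 36.2% and 37.8% with vehicle and 30.1% and 32.7% after MGH-CP1. JUNB held 7.05% and 7.95% with vehicle and 9.81% and 9.31% after MGH-CP1.

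The summed FPKM of the FOS genes was 268 and 276 with vehicle and 193 and 210.3 after MGH-CP1, and that of the JUN genes was 160.3 and 169 with vehicle and 203 and 198 after MGH-CP1. Their ratio, JUN to FOS, was 0.599 and 0.610 with vehicle and 1.05 and 0.940 after MGH-CP1. By FPKM the FOS sum was thus above the JUN sum with vehicle, and the sums were close to each other after MGH-CP1. On fragments not divided by gene length the mean ratio was 0.555 with vehicle and 0.740 after MGH-CP1, so there the FOS sum stayed above the JUN sum. The difference of this ratio on fragments was 0.184, against 0.391 by FPKM, in the same direction. The sum over all 9 genes was 435 and 453 FPKM with vehicle and 405 and 415 FPKM after MGH-CP1. Each of these sums, ratios and shares was apart between the conditions, with an exact two-sided permutation p of 0.333, the smallest that 2 libraries against 2 allow. These are levels of RNA, and protein was not measured here.

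**Figure D3:**
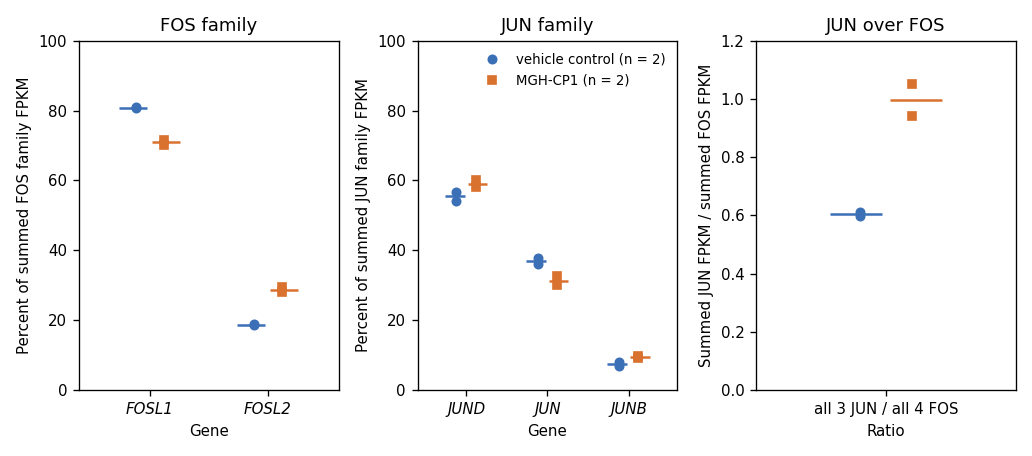
Share of the summed FPKM within the FOS family (FOSL1 and FOSL2; FOS and FOSB together hold under 1% and are left out) and within the JUN family, in percent, and the ratio of the summed JUN to the summed FOS genes, per library. Circles are the 2 vehicle control and squares the 2 MGH-CP1 libraries, lines are means, and the ratio moves from 0.605 to 0.996 on average.

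Genes around AP-1 were described by 7 lists. Of 18 other bZIP factors that pair with AP-1 proteins or share their sites, 14 were tested, 6 rose and 2 fell, with a median log2 fold change of 0.18 against 0.01 over all genes tested. The share called, 57.1%, was close to the 50.8% of all genes tested. The small MAF proteins, which lack an activation domain, rose together: MAFK had 6.32 and 6.52 FPKM with vehicle and 10.6 and 10.7 FPKM after MGH-CP1 (log2 fold change 0.65, adjusted p = 1.69e-04 from limma), and MAFG and MAFF rose by 0.35 and 0.33. CEBPB, an inflammatory bZIP factor, rose from 30.8 and 34.8 to 44.6 and 45.1 FPKM (log2 fold change 0.44), and DDIT3, the stress factor CHOP, by 0.37. JDP2, a repressor that dimerises with JUN, had 2.54 and 2.63 FPKM with vehicle and 1.02 and 1.46 FPKM after MGH-CP1 (log2 fold change -0.68, adjusted p = 0.00287 from limma). CEBPG, a partner of ATF4, fell by 0.60 on the log2 scale, and ATF2, the partner of JUN at CRE-like elements, had a log2 fold change of 0.01 (adjusted p = 0.9 from limma). MAFF and ATF2 are named here after their values were seen.

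Of 25 kinases that act upstream of AP-1, 23 were tested, 3 rose and 6 fell, and the median log2 fold change was -0.08. The share called, 39.1%, was below the 50.8% of all genes tested. The JUN kinase gene MAPK8 had 10.9 and 11.0 FPKM with vehicle and 8.68 and 8.83 FPKM after MGH-CP1 (log2 fold change -0.29, adjusted p = 0.00587 from limma), and the related MAPK9 fell by 0.21. Of the kinases that activate them, MAP2K4 fell by 0.20 and MAP2K7 rose by 0.31. MAPK9 and MAP2K4 are named here after their values were seen. MAPK3, which encodes an ERK kinase, rose by 0.35. RPS6KA5 (-0.28), a kinase of CREB and histones, and CSNK2A1 (-0.26), a casein kinase subunit, were also lower, and MAP2K2, which activates ERK, rose by 0.16. Of 10 transcription factors known to induce FOS or JUN, all were tested, 1 rose and 2 fell, so that 30% were called against 50.8% of all genes tested. The gene that rose was MEF2D (0.42), which acts on the JUN promoter, and those that fell were the serum response factor SRF (-0.19) and its partner ELK4 (-0.25).

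Of 18 genes for coactivators, for the stability of JUN and for repression, all were tested, 3 rose and 5 fell, which is 44.4% called against 50.8% of all genes tested. RNF187, an ubiquitin ligase known as a coactivator of JUN, had 30.2 and 32.6 FPKM with vehicle and 43.2 and 40.9 FPKM after MGH-CP1 (log2 fold change 0.41, adjusted p = 8.01e-04 from limma), and the coactivator NCOA3 and the deacetylase HDAC3 rose by 0.21 and 0.16. The SUMO protease SENP1 (-0.50), the acetyltransferase CREBBP (-0.36), the SUMO ligase PIAS1 (-0.32) and the deacetylase SIRT1 (-0.31) fell. Of 10 phosphatases of MAP kinases, many of them targets of ERK signalling, 8 were tested, 3 rose and 2 fell, or 62.5% called against 50.8% of all genes tested (27.1% higher and 23.8% lower). DUSP6, which acts on ERK, had 50.6 and 52.0 FPKM with vehicle and 93.2 and 85.1 FPKM after MGH-CP1 (log2 fold change 0.78, adjusted p = 3.98e-05 from limma), and DUSP5 and DUSP4 rose by 0.77 and 0.62. DUSP14 (-0.45) and DUSP1 (-0.31), an immediate-early gene, fell.

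Of 35 genes known as AP-1 targets in other cells, 29 were tested, 11 rose and 10 fell, so that 72.4% were called, in both directions, against 50.8% of all genes tested. The collagenase MMP1 had 4.21 and 3.94 FPKM with vehicle and 9.53 and 8.0 FPKM after MGH-CP1 (log2 fold change 0.94, adjusted p = 1.45e-04 from limma). The protease inhibitor TIMP1 (0.85), the growth factor VEGFA (0.72) and the membrane protease MMP14 (0.54) also rose. Among those that fell were ODC1 (-1.14), the first enzyme of polyamine synthesis, the cytokine IL11 (-0.83), the coagulation receptor F3 (-0.57) and the urokinase gene PLAU (-0.49). F3 and HBEGF (-0.23) are also in the list of targets shared by TEAD and AP-1, so their falls are counted in both lists. The other collagenase and stromelysin genes of the list, MMP3, MMP10 and MMP13, were at or near 0 in every library, and are named here after their values were seen.

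Of 28 genes described as targets of enhancers that TEAD and AP-1 share, all were tested, 25 fell and 2 rose. The share called was 96.4%, against 50.8% of all genes tested (27.1% higher and 23.8% lower). The median log2 fold change was -0.64 against 0.01 over all genes tested. This list holds TEAD–YAP targets whose fall was known when it was written, so neither its direction nor its share called is independent evidence. The cell cycle genes CCNA2 (-1.06) and CDCA5 (-0.93), the peptide EDN1 (-0.87) and the receptor kinase AXL (-0.76) fell most. AREG, an EGF receptor ligand, went the other way, with 12 and 15 FPKM with vehicle and 34.7 and 33.2 FPKM after MGH-CP1 (log2 fold change 1.28, adjusted p = 3.98e-05 from limma), and the related EREG rose by 0.23. A listed near copy of AREG, AREGB, held 1 to 8 fragments per library, and reads of the pair may have been split between them.

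**Figure D4:**
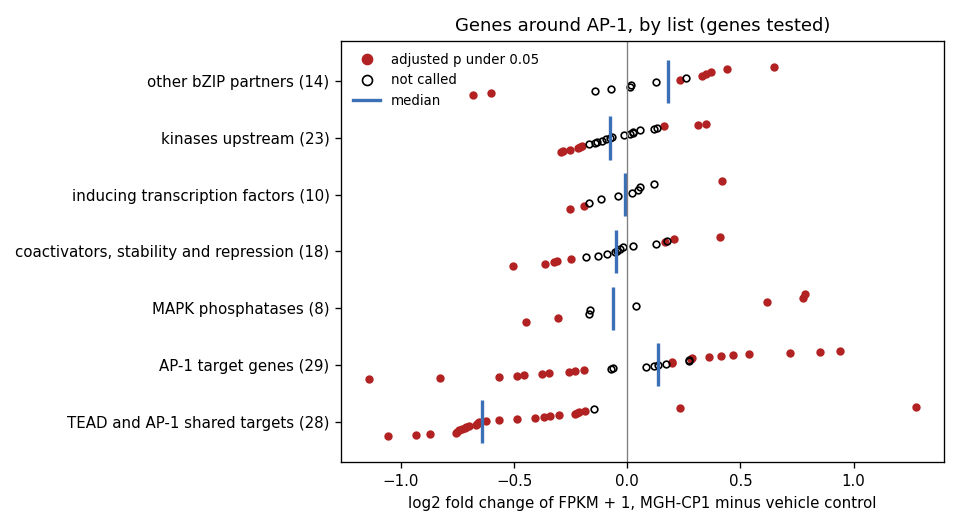
Log2 fold change of log2(FPKM + 1), MGH-CP1 minus vehicle control, of the genes tested in each of the 7 lists, a circle per gene, filled where the adjusted p from limma was under 0.05, with the number tested in brackets and a line at the median. The genes of the TEAD and AP-1 shared list lie in the main left of 0, and those of the AP-1 target list spread to both sides.

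The genes whose pattern over the 4 libraries was most like that of JUNB, by the Euclidean distance of centred log2(FPKM + 1), were BABAM1, TBXAS1 and CCDC130, at distances from 0.0251 to 0.029 and with log2 fold changes from 0.57 to 0.58. Those most like FOSL1 were SYNE2, SLC39A8 and MTHFD2, at distances from 0.0223 to 0.0255 and with log2 fold changes from -0.64 to -0.62. With 4 libraries such likeness is common: 69 genes lay within 0.1 of JUNB and 145 within 0.1 of FOSL1.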

How the data were processed

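RNA of MDA-MB-231 cells was sequenced, and the libraries (2 with vehicle control, 2 with MGH-CP1) were matched to the columns of the deposited table by the condition and replicate in the sample titles, the column name DMSO being read as vehicle. The authors deposited FPKM for 48162 genes, scaled to gene length and to the fragments of each library. The submitters' processing notes name CASAVA 1.8, STAR and hg19. The counting tool, the annotation and the use of strand are not given in the sources used here. Of symbols listed more than one time, the entry with the highest mean was used. Per library, FPKM times length came out as whole numbers of 1 smallest unit for 100% of values (tolerance 0.01 of that unit), which gives back the fragments, 17577930 to 25508824 per library.

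Genes whose FPKM averaged 1 or more were compared on log2(FPKM + 1), a scale that understates changes of low genes, with limma 3.58.1 in R 4.3.3 (lmFit, eBayes with a trend, two-sided), Benjamini-Hochberg adjusted over all 12080 genes. Sums and shares were compared by exact permutation tests (scipy 1.17.1). The script was tested on simulated data of this design, where 11.8% of 195 calls were false, above the nominal rate of the adjusted p threshold. At a true log2 size of 0.5, 78% of the changed genes tested were recovered. The simulation changed 200 genes, far fewer than were called in the data. The alternatives were another pseudocount, other filters, scalings and variance models, the replicate block, each library left out, and voom on the recovered fragments. The members and lists were chosen, and the lists written from general knowledge, with earlier results of these data known. Named genes are the members, up to 4 rises and 4 falls called per list, 3 genes most like the member with the largest rise and fall, and CYR61, CTGF and ANKRD1; the symbol PECAM1 was not matched and is not analysed here. Some items that these rules would name are not reported here.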

Additional observations from a re-analysis of the deposited data

How the results depend on the processing

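No result of the members turned its direction where it was called. With a test of each gene on its own variance, 0 members and 0 genes of any list passed in either direction, except for 1 MAPK phosphatase that rose, while the log2 fold changes stayed at -0.62 for FOSL1, 0.18 for FOSL2, 0.60 for JUNB and 0.37 for JUND. Over all genes tested, that test called only 9 higher and 4 lower. With no filter on low values, the calls were 1 bZIP partner lower, 0 inducing factors lower, 1 coactivator higher, 5 AP-1 targets higher and 1 shared target higher, and FOSL2 was at 0.18 (adjusted p = 0.0621 from limma). Calls over all genes dropped as well, to 2280 higher and 1844 lower, against 3273 and 2869 in the main fit. With a mean FPKM of at least 5, 1 bZIP partner was lower, and ATF3 and BATF3 could not be tested. Quantile normalization gave 1 inducing factor lower and 1 shared target higher. Without the variance trend, 1 inducing factor was lower, 7 AP-1 targets were higher and FOSL2 was at 0.18 (adjusted p = 0.0587 from limma). Over all genes, the calls higher and lower were 2434 and 2564 with a mean FPKM of at least 5. They were 2918 and 3221 with quantile normalization, and 3120 and 2644 without the trend. The voom fit, chosen after seeing the data, called 2 members lower, FOSL1 and FOS. On fragments not divided by length, the difference of the JUN to FOS ratio was 0.184 and that of the FOSL1 share -13.6 percentage points. After MGH-CP1 the mean share of FOS family fragments was 37.9% for FOSL1 and 61.8% for FOSL2, so their order depends on the division by length.

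With each library left out in turn, FOSL2 ranged from 0.15 to 0.21. The calls ranged from 2 to 5 kinases lower (2 without vehicle control replicate 1, and 3 without either MGH-CP1 replicate), from 0 to 2 inducing factors lower (0 without MGH-CP1 replicate 1, 1 without vehicle control replicate 1), from 1 to 2 coactivators higher (1 without vehicle control replicate 2 or MGH-CP1 replicate 1), from 1 to 2 phosphatases lower (1 without MGH-CP1 replicate 1), and 1 shared target higher without any one of the 4. In each of these fits with a library left out, fewer genes were called over all genes too, in both directions. The replicate numbers are shared between the conditions, but no label says that they mark a common batch, and the correlation of same-numbered deviations was 0.0777. With the replicate block, 3 members were higher and 1 lower, as without it. Depth limits FOS and FOSB most, at 10 to 72 fragments per library.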
